A study of Mus musculus with 7 samples.

Results

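The 7 genes described here are the corticosteroid receptors, a steroid-activating enzyme and 4 genes that steroids induce, out of 54532 gene rows in the retina count table. They were chosen by name: Nr3c1, Nr3c2, Hsd11b1, Sgk1, Fkbp5, Tsc22d3 and Zbtb16. Each symbol had 1 row, and all 7 were among the 17078 genes that passed the filter on low counts. RNA was taken from mouse retina, the light-sensing neural layer of the eye, at day 28 of infusion. The mice received Ang II (angiotensin II, a peptide hormone that raises blood pressure; 4 libraries) or saline (3 libraries). The series text gives the mice of both groups as ApoE-/-, a strain that lacks apolipoprotein E, while the sample labels give their genotype as WT. Age, sex, Ang II dose and the number of animals behind a library are not given in the sources used here, so p-values measure the spread between these libraries.

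Glucocorticoids such as corticosterone enter cells and bind the glucocorticoid receptor, encoded by Nr3c1, which a chaperone complex built on Hsp90 holds ready in the cytosol. The bound receptor moves to the nucleus and attaches to palindromic DNA elements near genes such as Fkbp5, Tsc22d3, Zbtb16 and Sgk1. The mineralocorticoid receptor, encoded by Nr3c2, recognises the same elements and binds aldosterone as well as glucocorticoids. In the adrenal gland Ang II is a main stimulus of aldosterone release. Hsd11b1 encodes the enzyme that regenerates active glucocorticoid inside cells.

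One element of this kind lies in the windows that were searched. Windows of 300 bases around annotated gene starts (RefSeq, build GRCm38.p6) were found for 5 of the 7 genes, which excludes Nr3c1 and Zbtb16. They were searched for the full palindrome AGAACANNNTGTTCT, which reads the same on both strands, and for its arm TGTTCT on either strand, where an arm inside a full match was counted too. The 3 windows below are shown because they hold the full element, 1 arm alone and neither. The table gives Sgk1 6 start sites and Tsc22d3 3, of which 1 each is shown. Capitals mark every match.

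Sgk1 (chr10:21993640-21993939, plus strand): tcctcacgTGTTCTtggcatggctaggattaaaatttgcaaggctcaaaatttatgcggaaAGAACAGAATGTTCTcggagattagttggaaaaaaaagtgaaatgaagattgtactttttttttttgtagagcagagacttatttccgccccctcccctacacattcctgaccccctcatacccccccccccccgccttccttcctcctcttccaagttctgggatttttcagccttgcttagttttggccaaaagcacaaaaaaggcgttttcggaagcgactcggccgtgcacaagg

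Tsc22d3 (chrX:140600473-140600772, minus strand): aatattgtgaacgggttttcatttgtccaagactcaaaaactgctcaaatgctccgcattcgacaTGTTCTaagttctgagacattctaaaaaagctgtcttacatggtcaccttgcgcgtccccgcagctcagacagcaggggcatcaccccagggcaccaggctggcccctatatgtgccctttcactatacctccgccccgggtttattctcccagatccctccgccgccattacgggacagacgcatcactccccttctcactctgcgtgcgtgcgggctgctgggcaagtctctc

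Fkbp5 (chr17:28486100-28486399, minus strand): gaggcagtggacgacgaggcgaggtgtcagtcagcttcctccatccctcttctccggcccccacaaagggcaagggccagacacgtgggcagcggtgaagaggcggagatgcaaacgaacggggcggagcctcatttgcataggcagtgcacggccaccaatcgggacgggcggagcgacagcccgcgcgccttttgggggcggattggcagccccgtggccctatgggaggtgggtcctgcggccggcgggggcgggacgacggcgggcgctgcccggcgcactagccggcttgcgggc

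The full element in Sgk1 (chr10:21993701-21993715) begins 189 bases before the start site of its own window and 965 bases before the Sgk1 start site farthest downstream in the table. Of 32851 windows in the table, 3 (0.00913%) held the full element, and the other two belong to Acnat2 and Gm35041. The arm was found in 6233 windows (19%), or at 21.3% of the gene symbols in the table. Among the 5 genes with windows, Sgk1 and Tsc22d3 held at least 1 arm. Of 26 other glucocorticoid-induced genes with windows, 3 held the arm and 0 the full element. Counts per gene do not say which start site was used, and a match is a description of letters, not evidence of receptor binding. Inexact matches and sites outside the windows were not searched, so a window without a match does not show that a gene lacks an element.

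The libraries held 14655431 to 17563493 counts. Saline replicate 2 had the fewest counts and the fewest genes with a count, 21260 beside 24024 to 24846 in the other libraries. Levels are given as CPM (counts scaled to library size, after TMM scaling), and per-library values are listed in replicate order. Summed rod markers were at 53607 to 65852 CPM in Ang II and 66949 to 71575 CPM in saline, with no overlap. All 14 pigment epithelium markers, genes of the layer behind the photoreceptors, were detected. Their sum reached 1417, 1470, 2005 and 1128 CPM in the Ang II libraries against 200.4, 233.1 and 1028 CPM in the saline ones. The Ang II sums lay above every saline sum (exact two-sided permutation p = 0.0286, the smallest that 35 arrangements allow), and saline replicate 3 lay close to them. Immediate early genes, a rapid transcriptional response, summed to between 221.7 and 281.5 CPM with Ang II, and to 411.4, 709.3 and 282.1 CPM with saline. Saline replicate 2 thus had the highest immediate early sum and saline replicate 3 the highest pigment epithelium sum of their group, and values without each are given where a result rests on them. Markers of Müller glia, the main support cells of the retina, summed to 3886 to 4927 CPM with Ang II and 4280 to 4968 CPM with saline. The sums of vascular, pericyte, microglia, myelin, fibroblast, choroid, ciliary body and blood markers overlapped between the groups, with 1 choroid marker at 0 throughout. In bulk tissue, fewer cells of a type and less RNA per cell cannot be told apart.

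None of the 7 genes differed between Ang II and saline by more than the spread between libraries. With the quasi-likelihood test of edgeR, adjusted by Benjamini-Hochberg over all genes tested, 0 of 7 passed (threshold adjusted p under 0.05; smallest adjusted p = 0.982). The background was 0 of 17078 genes called (0%). At an unadjusted p under 0.05 there were 0 of 7 members, beside 789 genes overall (4.62%). DESeq2 called 0 of the 7 and 0.2% of all genes it tested, and limma-voom with quality weights called 0 of the 7 and 0.668% of all genes. The groups overlapped for every member, while they did not overlap for 5.91% of all genes. The log2 fold changes of the 7 (Ang II over saline) ran from -0.26 to 0.20 with a median of -0.08, beside a median of -0.0048 over all genes.

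**Figure D1:**
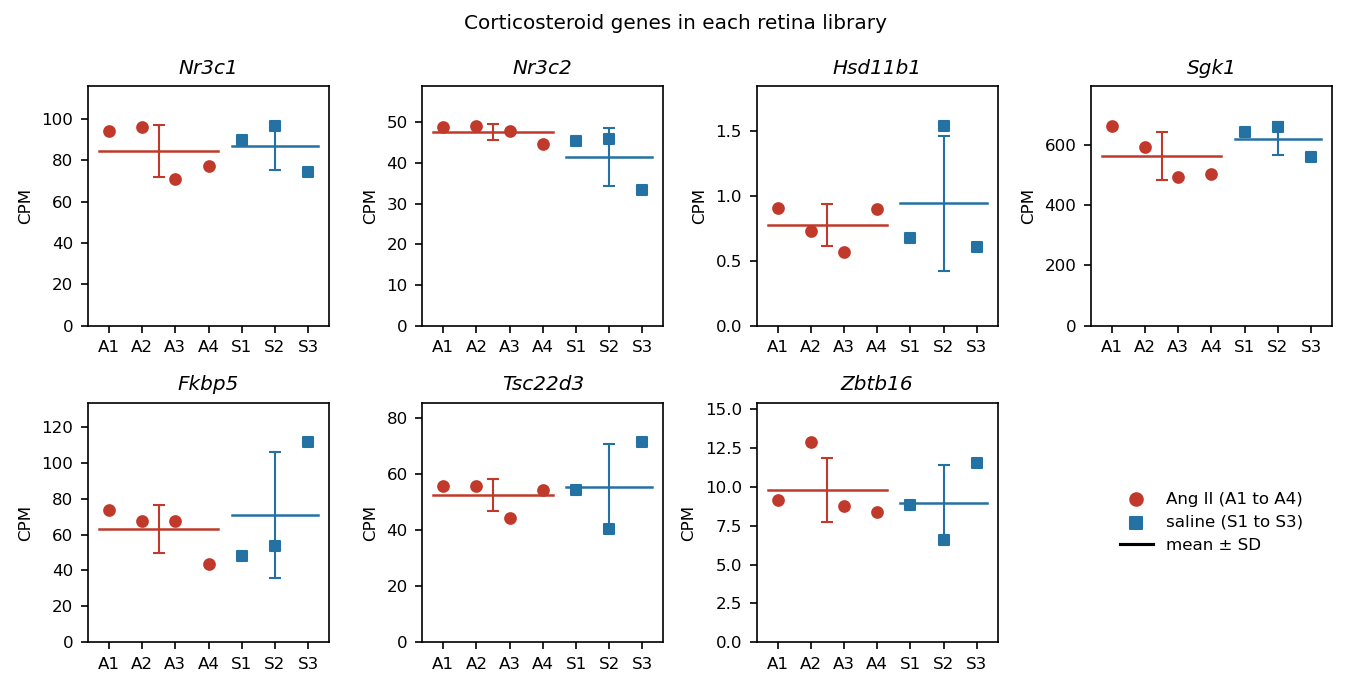
CPM of each gene (vertical axes, each from 0) in Ang II libraries A1 to A4 (red circles) and saline libraries S1 to S3 (blue squares), with group means (lines) and SD (bars). Fkbp5 and Tsc22d3 reach their highest values, 111.2 and 71.2 CPM, in S3, and the groups overlap in every panel.

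Sgk1 had by far the highest level of the 7 when counts were divided by gene length, with a mean over the 7 libraries of 119.8 CPM per kb. Tsc22d3 (12.4), Nr3c1 (11.5), Fkbp5 (7.02) and Nr3c2 (6.94 CPM per kb) followed. Zbtb16 at 1.78 and Hsd11b1 at 0.1999 CPM per kb were lowest. Neighbours in the middle of this order were not separated by their spread: Tsc22d3 ranged from 9.33 to 16.4 and Nr3c1 from 9.55 to 13 CPM per kb, while Fkbp5 from 4.61 to 11.7 and Nr3c2 from 5.15 to 7.57 CPM per kb. Sgk1, Zbtb16 and Hsd11b1 did not overlap with any other member.

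Nr3c1 (ENSMUSG00000024431, chromosome 18, 39410545 to 39491301, mm10), the glucocorticoid receptor gene, read 94.0, 96.1, 70.9 and 77.0 CPM with Ang II. With saline the 3 libraries read 89.6, 96.5 and 74.1 CPM. Both groups thus held high and low libraries in the same range. The group means were 84.5 ± 12.5 CPM (SD, n = 4) and 86.8 ± 11.5 CPM (SD, n = 3). The log2 fold change was -0.04 ± 0.12 (SE; edgeR adjusted p = 0.990), with a 95% interval from 0.813-fold to 1.17-fold. Its sign turned in 8 of 15 alternatives, so no direction can be read.

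Nr3c2 (ENSMUSG00000031618, chromosome 8, 76899442 to 77245012), the mineralocorticoid receptor gene, read 48.7, 49.0, 47.8 and 44.5 CPM with Ang II. With saline it read 45.3, 45.7 and 33.3 CPM. The low value belonged to saline replicate 3, and the other 6 libraries lay within 44.5 to 49.0 CPM. Means were 47.5 ± 2.04 CPM (SD, n = 4) and 41.4 ± 7.04 CPM (SD, n = 3), and the log2 fold change was 0.20 ± 0.12 (SE; edgeR adjusted p = 0.982; 95% interval 0.967-fold to 1.36-fold). Without saline replicate 3 the log2 fold change was 0.07 (edgeR adjusted p = 0.917). An antisense gene model, Gm10649, shares 247 of the 6474 exon bases of Nr3c2 and had 146 counts in all libraries together against 5082 for Nr3c2, and these reads cannot be separated without strand information.

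The balance of the 2 receptors was computed per base of gene length, a comparison chosen after the values were seen. Nr3c2 stood at 0.594, 0.585, 0.773 and 0.663 of Nr3c1 in the Ang II libraries, against 0.579, 0.543 and 0.515 in the saline ones. The lowest Ang II ratio was 0.585 and the highest saline ratio 0.579, so the groups just failed to overlap. The highest ratio came from a low Nr3c1 level in Ang II replicate 3, and the lowest from the low Nr3c2 level in saline replicate 3. The difference in ratio was not tested, and how often ratios of other gene pairs fail to overlap was not computed. Each receptor gene overlapped between the groups, and neither passed on its own.

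Hsd11b1 (ENSMUSG00000016194, chromosome 1, 193221634 to 193264075) was close to the limit of detection. The Ang II libraries held 16, 12, 9 and 15 reads of it, the saline libraries 11, 22 and 10. The 22 counts of saline replicate 2 correspond to 1.501 CPM on the unscaled library size (exact Clopper-Pearson 95% interval 0.941 to 2.27), and the 9 counts of Ang II replicate 3 to 0.585 CPM (0.268 to 1.11). These intervals cover counting error alone, because PCR copies of a molecule cannot be recognised. They overlap at these extremes, which is not a test of the difference between the libraries. The log2 fold change was -0.26 ± 0.46 (SE; edgeR adjusted p = 0.984), with a 95% interval from 0.421-fold to 1.66-fold. Without saline replicate 2 it was 0.27 (edgeR adjusted p = 0.970). A difference within that interval was not detectable at this depth. Hsd11b2, which encodes the opposing enzyme that inactivates glucocorticoid, had 2 to 8 counts in Ang II and 2 to 12 in saline and lay below the filter on low counts.

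Sgk1 (ENSMUSG00000019970, chromosome 10, 21882184 to 21999903) encodes a kinase that promotes sodium transport downstream of both receptors, and it is the gene with the full element shown above. Levels were 661.6, 592.4, 493.0 and 504.3 CPM with Ang II, against 643.1, 658.6 and 557.6 CPM with saline. Ang II replicates 3 and 4 were the lowest libraries, while Ang II replicate 1 was the highest. Means were 562.8 ± 79.4 CPM (SD, n = 4) and 619.8 ± 54.4 CPM (SD, n = 3). The log2 fold change was -0.14 ± 0.11 (SE; edgeR adjusted p = 0.982), with a 95% interval from 0.771-fold to 1.07-fold. Of the 7 genes Sgk1 varied least, by 1.34 times between its highest and lowest library. Its log2 fold change stayed below 0 in 15 of 15 alternatives (-0.23 to -0.03), and it passed in none of them. Nr3c2 likewise kept its sign, above 0, in 15 of 15 (0.07 to 0.47) and passed in none.

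Fkbp5 (ENSMUSG00000024222, chromosome 17, 28399094 to 28517527) encodes a co-chaperone that lowers the receptor's affinity for hormone and so closes a feedback loop. Levels were 73.8, 67.3, 67.5 and 43.6 CPM with Ang II. Saline libraries read 47.9, 53.8 and 111.2 CPM. The highest and the lowest of the 7 libraries were thus saline replicate 3 and Ang II replicate 4, 2.55 times apart. Means were 63.1 ± 13.3 CPM (SD, n = 4) and 71.0 ± 34.9 CPM (SD, n = 3), and the log2 fold change was -0.17 ± 0.36 (SE; edgeR adjusted p = 0.985). The 95% interval ran from 0.479-fold to 1.65-fold. One library set the direction: without saline replicate 3 the log2 fold change was 0.32 (edgeR adjusted p = 0.737). With the mean log2 CPM of the pigment epithelium markers as a covariate it was -1.01 (edgeR adjusted p = 0.486). The summed markers did not overlap between the groups. Values with this covariate, here and below, are therefore not fold changes corrected for tissue content.

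Tsc22d3 (ENSMUSG00000031431, chromosome X, 140539528 to 140600659), also known as Gilz, encodes a leucine zipper protein that carries part of the anti-inflammatory action of glucocorticoids. Levels were 55.7, 55.9, 44.2 and 54.3 CPM with Ang II. Saline libraries read 54.4, 40.5 and 71.2 CPM. Saline thus held both the lowest library (replicate 2) and the highest (replicate 3), with all 4 Ang II libraries between them. Means were 52.5 ± 5.599 CPM (SD, n = 4) and 55.4 ± 15.4 CPM (SD, n = 3). The log2 fold change was -0.08 ± 0.16 (SE; edgeR adjusted p = 0.985; 95% interval 0.742-fold to 1.21-fold). Without saline replicate 3 it was 0.15 (edgeR adjusted p = 0.844), without saline replicate 2 -0.26 (edgeR adjusted p = 0.926) and with the pigment epithelium covariate -0.46.

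Zbtb16 (ENSMUSG00000066687, chromosome 9, 48654297 to 48836222), also known as Plzf, encodes a zinc finger repressor that glucocorticoids induce in many tissues. Levels were 9.13, 12.8, 8.73 and 8.39 CPM with Ang II, against 8.80, 6.59 and 11.5 CPM with saline. Ang II replicate 2 and saline replicate 3 were high and saline replicate 2 was low, so the groups overlapped. Means were 9.77 ± 2.06 CPM (SD, n = 4) and 8.96 ± 2.45 CPM (SD, n = 3). The log2 fold change was 0.12 ± 0.21 (SE; edgeR adjusted p = 0.984; 95% interval 0.795-fold to 1.49-fold). Without Ang II replicate 2 it was -0.04, without saline replicate 2 -0.06 (edgeR adjusted p = 0.9998 and 0.985) and with the pigment epithelium covariate -0.41.

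**Figure D2:**
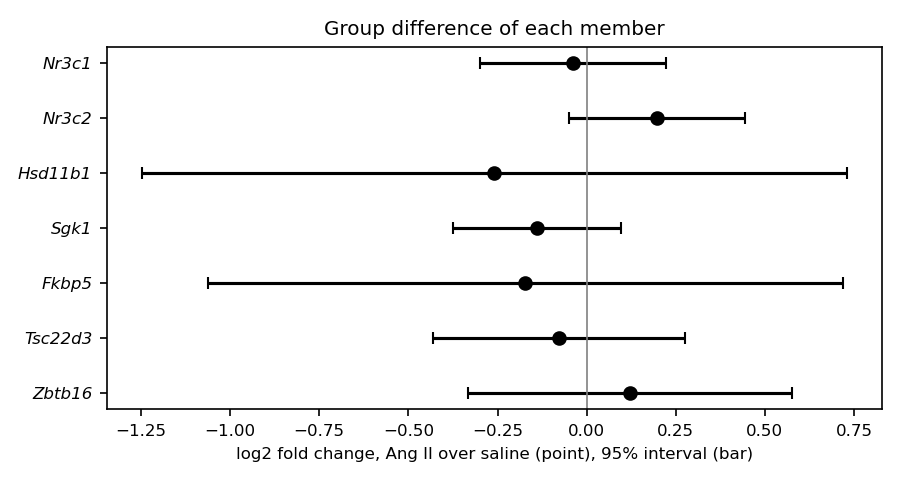
Log2 fold change of Ang II over saline (horizontal axis) for each of the 7 genes (rows), as the edgeR estimate (point) and its 95% interval (bar). Every interval includes 0, and those of Hsd11b1 (0.421-fold to 1.66-fold) and Fkbp5 (0.479-fold to 1.65-fold) are the widest.

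Libraries high in one member were compared with libraries high in another over 21 pairs of the 7 genes, using log2 CPM in 7 libraries. After adjustment 0 of 21 pairs passed, by Pearson's r (exact permutation, smallest adjusted p = 0.480) or by Spearman's rho (exact permutation, smallest adjusted p = 0.142). By Pearson's r, Sgk1 lay closest to the receptor gene Nr3c1, with r = 0.88 (exact permutation p = 0.0266, adjusted p = 0.480) and rho = 0.79 (exact permutation p = 0.0480, adjusted p = 0.336). Leaving out Ang II replicate 3 and saline replicate 3, the 2 libraries farthest from the median of Nr3c1, r was 0.85. By rank the scarce Hsd11b1 lay closer to Nr3c1, with rho = 0.82 (exact permutation p = 0.0341, adjusted p = 0.336). Its r with Nr3c1 was 0.60, and 0.21 without the same libraries. Tsc22d3 and Zbtb16 had r = 0.75 (exact permutation p = 0.0478, adjusted p = 0.480) and rho = 0.93 (exact permutation p = 0.00675, adjusted p = 0.142). Without saline replicates 2 and 3, the 2 libraries farthest from the median of Tsc22d3, r was 0.35, and without either alone 0.55 and 0.69.

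Fkbp5 had r = 0.56 with Tsc22d3 (exact permutation p = 0.183, adjusted p = 0.480; rho = 0.54, exact permutation p = 0.236, adjusted p = 0.826). With Zbtb16 it had r = 0.59 (exact permutation p = 0.161, adjusted p = 0.480; rho = 0.57, exact permutation p = 0.2, adjusted p = 0.826). Without Ang II replicate 4 and saline replicate 3 these were 0.23 and 0.46. Without saline replicate 3 alone, r of Fkbp5 with Tsc22d3 was 0.00024. Sgk1 had r = -0.04 with Fkbp5, -0.07 with Tsc22d3 and -0.17 with Zbtb16 (exact permutation p = 0.947, 0.870 and 0.687; adjusted p = 0.947, 0.914 and 0.849), and rho = 0.07 with each (exact permutation p = 0.906, adjusted p = 0.963). Ang II replicates 3 and 4, the lowest Sgk1 libraries, decide these values: without them r was -0.75, -0.77 and -0.79 over the other 5. No relation of Sgk1 to the other 3 induced genes could be shown with these libraries.

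Another 30 genes that glucocorticoids are known to induce were listed, among them the clock gene Per1 and the transcription factor gene Klf9, and 29 of them were tested. With edgeR 0 were called higher and 0 lower, 14 lay above 0 and 15 below, and the median log2 fold change was -0.0012 beside -0.0048 for all genes. At an unadjusted p under 0.05 there were 2. The list median was 0.18 when saline replicate 3 was left out, and -0.19 once the pigment epithelium covariate was added. Per1 was at 120.9 to 147.3 CPM in Ang II and 128.8 to 163.7 CPM in saline (log2 fold change -0.08 ± 0.10). Klf9 was at 138.4 to 147.1 CPM in Ang II and 135.4 to 155.7 CPM in saline (-0.03 ± 0.08). Both genes varied little between the libraries.

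The 2 genes of this list with the smallest p on the higher side were Mt2 and Mertk. Mt2, a metallothionein gene that binds zinc, was at 3.23, 2.44, 1.01 and 2.05 CPM in Ang II against 0.434, 0.981 and 0.733 CPM in saline (log2 fold change 1.61 ± 0.45, edgeR adjusted p = 0.875). All 4 Ang II libraries lay above the saline libraries, at the nearest by 16 counts in Ang II replicate 3 against 14 in saline replicate 2. Groups did not overlap for 2 of the 29 genes tested in this list, beside 5.91% of all genes. Mertk, a receptor gene for the uptake of outer segments by pigment epithelium, read 16.1, 17.97, 15.05 and 15.1 CPM with Ang II against 9.41, 10.02 and 16.1 CPM with saline (0.44 ± 0.18, edgeR adjusted p = 0.982). Saline replicate 3, which also had the highest saline sum of pigment epithelium markers, lay within the Ang II range. With the pigment epithelium covariate the log2 fold change of Mertk was -0.04 and that of Mt2 1.68. The marker sums did not overlap between the groups, so these values cannot tell pigment epithelium content from Ang II for either gene. Limma-voom called Mertk and Mt2 (adjusted p = 0.0374 and 0.0257). On the lower side, Glul, the glutamine synthetase gene of Müller glia, was at -0.15 ± 0.11 and the stress gene Gadd45g at -0.21 ± 0.16.

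The induced genes moved with single saline libraries, a pattern described after the values were seen. Of the 29, 24 were above their own 7-library mean in saline replicate 3 and 4 were above it in saline replicate 2. In the other 5 libraries 12 to 18 were above it. The median deviation on the log2 CPM scale was 0.24 in saline replicate 3 and -0.23 in saline replicate 2, beside 0.01 and 0.0050 for all genes, and between -0.04 and 0.03 in the other 5 libraries. For 12 of the 29, saline replicate 3 was the highest library, beside 15.2% of all genes. They were Klf15, Ddit4, Errfi1, Angptl4, Glul, Nfkbia, Lcn2, Fam107a, Map3k6, Arrdc2, Tgm2 and Gadd45g. Saline replicate 2 was the lowest for 10 of the 29, beside 23.2% of all genes, and both held for 5, beside 6.02%.

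Ddit4, an inhibitor gene of the growth kinase mTOR, shows the pattern, with 99.9, 93.1, 91.4 and 93.9 CPM in the Ang II libraries against 103.4, 71.2 and 143.7 CPM in the saline ones. Its Ang II libraries lay close together between the saline extremes. Among the 7 members, 2 were highest in saline replicate 3 (Fkbp5 and Tsc22d3), 2 were lowest in saline replicate 2 (Tsc22d3 and Zbtb16), and Sgk1 was neither. Genes within a library are not independent of each other, so these counts describe 2 libraries and carry no test. Pigment epithelium sums were 1128 to 2005 CPM in the Ang II libraries and 1028 CPM in saline replicate 3. The deviations are taken from a mean that includes the Ang II libraries, and the part of these sums in the pattern was not tested. The immediate early sum ran the other way within saline, highest in replicate 2 (709.3 CPM) and lowest in replicate 3 (282.1 CPM), and its part in the pattern was not tested. Saline replicate 2 also had the fewest genes with a count (21260), and the part of this difference in the pattern was not tested.

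**Figure D3:**
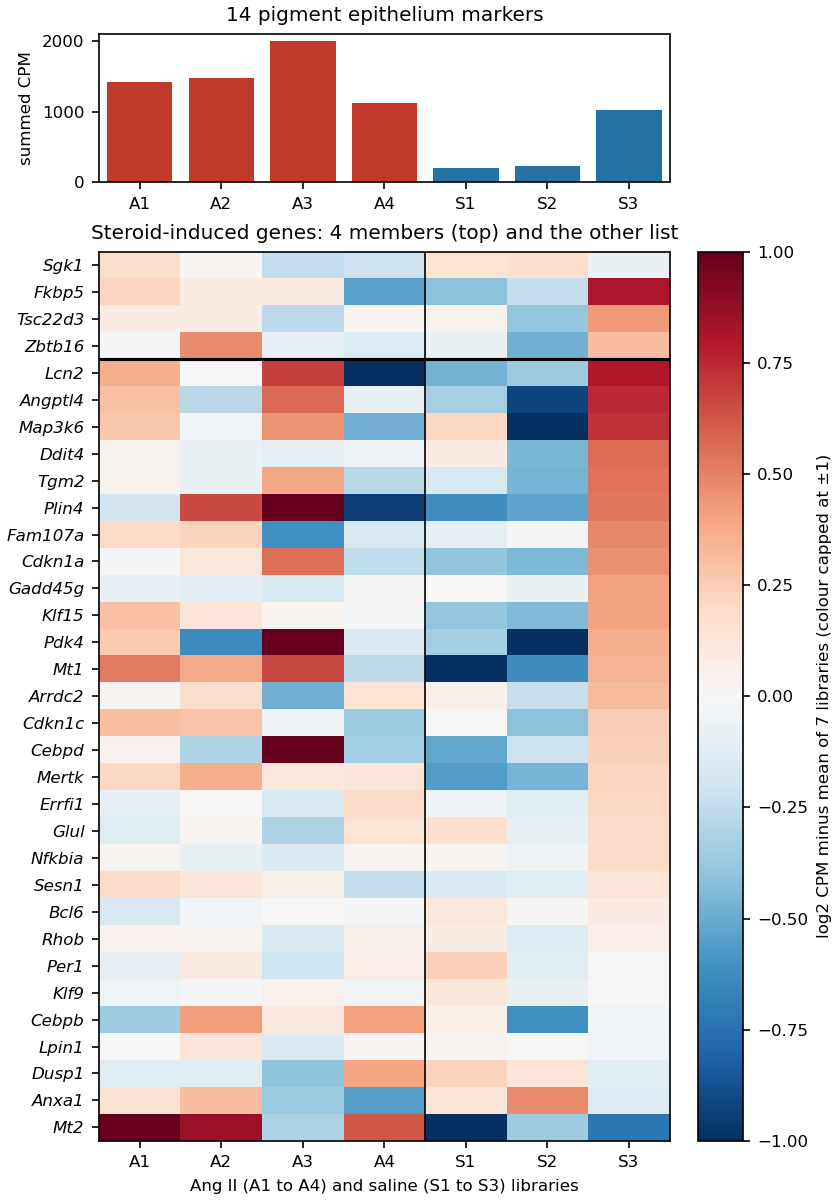
Top, summed CPM of 14 pigment epithelium markers in Ang II libraries A1 to A4 (red) and saline libraries S1 to S3 (blue). Below, log2 CPM of each steroid-induced gene minus its mean over the 7 libraries (colour, capped at the ends of the scale), with the 4 members on top and the other 29 ordered by their value in S3, where 24 of 29 are above their mean against 4 of 29 in S2.

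The chaperones that hold the receptors, 12 genes and all tested, gave 0 calls in either direction with edgeR, 1 of 12 at an unadjusted p under 0.05, and 11 of 12 log2 fold changes below 0 (median -0.07, beside -0.0048 for all genes). Over the alternatives the list median ran from -0.14 with the replicate block to -0.02 without Ang II replicate 3. Genes within a library are not independent of each other, so the count of signs carries no test. Ptges3, which encodes the p23 co-chaperone, was at 62.5 to 80.1 CPM in Ang II and 79.4 to 91.1 CPM in saline (-0.25 ± 0.10, edgeR adjusted p = 0.982). Hsp90aa1, the inducible Hsp90 gene, was at -0.17 ± 0.10. Ppid, the cyclophilin partner of Hsp90, was the single one above 0 (0.11 ± 0.10).

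Coregulators, the proteins that receptors recruit to chromatin, were likewise uncalled in either direction (0 of 12 with edgeR, 0 at an unadjusted p under 0.05; 4 above 0, 8 below, median -0.06). That median was 0.11 once the pigment epithelium covariate was added and 0.0092 when saline replicate 2 was left out. Med1, a Mediator subunit gene, was at 69.9 to 84.8 CPM in Ang II and 65.5 to 69.3 CPM in saline (0.19 ± 0.09), and its groups did not overlap. That held for 1 of the 12 coregulators, beside 5.91% of all genes. Ppargc1a, a coactivator gene of mitochondrial biogenesis, was at 0.21 ± 0.15. The chromatin remodeller gene Smarca4 and the methyltransferase gene Carm1 were at -0.18 ± 0.10 and -0.08 ± 0.10.

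Of 14 genes for steroid synthesis, inactivation and transport, 6 passed the filter, and 0 were called in either direction with edgeR (3 at an unadjusted p under 0.05; median 0.13). Groups did not overlap for 1 of the 6, beside 5.91% of all genes. Tspo, which encodes a cholesterol-binding protein of the outer mitochondrial membrane, was at 6.69, 9.23, 12.1 and 7.18 CPM in Ang II and 3.78, 3.72 and 7.03 CPM in saline. Its log2 fold change was 0.86 ± 0.27 (edgeR adjusted p = 0.982). It passed with limma-voom (1.02, adjusted p = 0.0397) and with edgeR without saline replicate 3 (1.23, adjusted p = 0.0439) or without the filter on low counts (0.86, adjusted p = 0.0439). Tspo levels ordered the libraries much like the pigment epithelium sum, with Ang II replicate 3 highest and saline replicates 1 and 2 lowest. The summed microglia and macrophage markers followed the order of Tspo more closely still. They were at 66.6, 73.5, 76.7 and 73.3 CPM in Ang II and 58.7, 59.2 and 67.7 CPM in saline. Their part in the Tspo difference was not tested. With the pigment epithelium covariate the log2 fold change of Tspo was 0.16. The pigment epithelium sums did not overlap between the groups, so pigment epithelium content and Ang II cannot be told apart here. The drug efflux pump genes Abcb1b and Abcb1a, which also export steroids, were at 0.81 ± 0.36 and -0.17 ± 0.16, and the reductase gene Srd5a1 at -0.11 ± 0.17.

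The enzymes that make corticosteroids were at or near 0. Cyp21a1 and Cyp11b2, the aldosterone synthase gene, had 0 counts in every library, which leaves room for up to 0.205 CPM (3 counts) in the library of lowest depth. Cyp11a1, which encodes the first enzyme of steroid synthesis, had 1, 4, 2 and 3 counts with Ang II and 7, 10 and 4 with saline, so the groups met at 4 counts. Cyp11b1 had 1 to 4 counts per library, Hsd3b1 at most 1 and Cyp17a1 at most 3. All of these lay below the filter on low counts, and when edgeR was run without that filter Tspo was the single pathway gene called.

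Genes that aldosterone controls in transporting epithelia were listed as well, and 12 of 16 passed the filter. With edgeR 0 were called in either direction and 0 had an unadjusted p under 0.05 (7 above 0, 5 below, median 0.02). Groups did not overlap for 1 of the 12, beside 5.91% of all genes. It was Stk39, at 73.98 to 87.4 CPM in Ang II and 71.0 to 72.6 CPM in saline. Stk39 and Wnk4, kinase genes that regulate sodium chloride cotransport, were at 0.16 ± 0.09 and 0.16 ± 0.17. Kcnj10, the main potassium channel gene of Müller glia, was at -0.20 ± 0.13 and the scaffold gene Cnksr3 at -0.20 ± 0.15. Of the epithelial sodium channel subunits, Scnn1a was at 0.603 to 1.53 CPM in Ang II and 0.841 to 1.24 CPM in saline, and Scnn1b and Scnn1g had at most 7 and 5 counts per library.

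Inflammatory genes that glucocorticoids repress lay mostly below the filter, with 5 of 12 tested and 0 called in either direction with edgeR (0 at an unadjusted p under 0.05; median -0.15, and 0.10 when saline replicate 3 was left out). Pomc, the corticotropin precursor gene, was at 0.30 ± 0.35 and the adhesion gene Icam1 at 0.25 ± 0.38. Vcam1 and the protease gene Mmp9 were at -0.15 ± 0.16 each. Il6 had 0 counts in every library, and Il1b had 5 and 9 counts in Ang II replicates 3 and 4 and 0 in the other 5 libraries.

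Receptors of the sex steroids share their chaperones with the corticosteroid receptors. The progesterone receptor gene Pgr was at 3.48 to 5.13 CPM in Ang II and 3.18 to 4.40 CPM in saline (0.15 ± 0.24, edgeR adjusted p = 0.983). The oestrogen receptor gene Esr1 was at 2.50 to 4.16 CPM in Ang II and 2.59 to 4.40 CPM in saline (0.03 ± 0.28, edgeR adjusted p = 0.996), and its direction turned with limma-voom (-0.24).

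**Figure D4:**
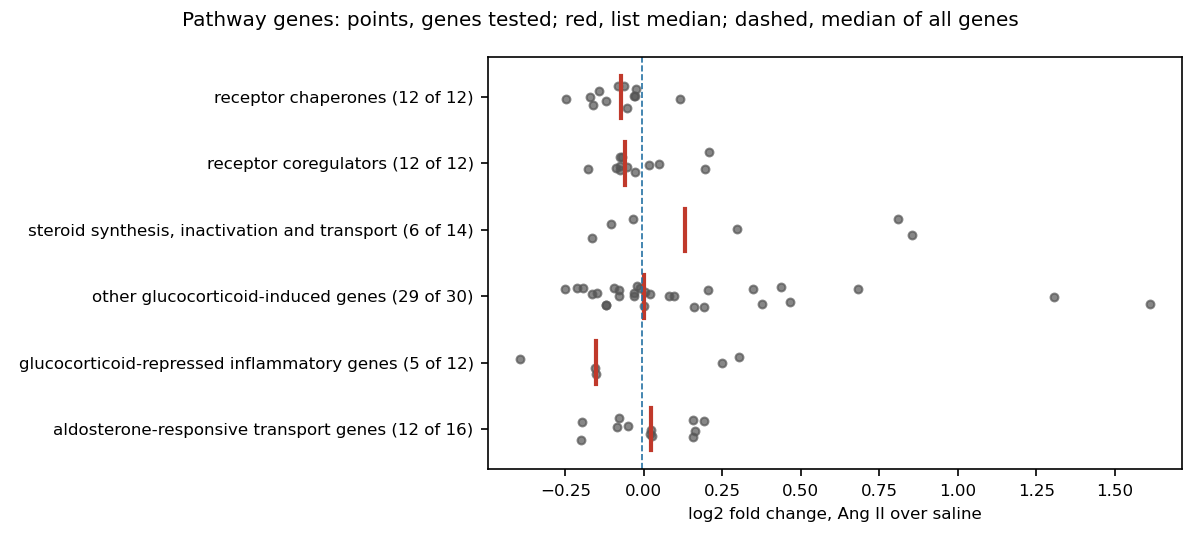
Log2 fold change of Ang II over saline (horizontal axis) for every tested gene of 6 pathway lists (points; how many of how many listed genes were tested is given in brackets), with each list's median (red bar) and the median of all genes tested (dashed line, -0.0048). The list medians run from -0.15 to 0.13, and the farthest point is Mt2 at 1.61.

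For the 6 members with a mean of at least 1 CPM, the genes most like them were taken by Pearson's r of log2 CPM over the 7 libraries among 13448 genes. Picking the best of so many over 7 points gives high values by itself, so these are descriptions. Nr3c1 was closest to Tmem260, Lrit3 and Zbed4 (r = 0.97 each). Nr3c2 was closest to Bbx (0.97), Atad5 (0.96) and Ehmt1 (0.96), and Sgk1 to Pde8b, Pmpcb and Tmem230 (0.98 each). Fkbp5 was closest to Tma16 (0.99), Aldh18a1 (0.98) and Qsox1 (0.97). Tsc22d3 was closest to Snhg12 (0.99), Osbp and Capzb (0.97 each), and Zbtb16 to Adgrb3 (0.97), Wbp11 (0.96) and Smg8 (0.96). None of these is on the lists of steroid-related genes used here.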

How the data were processed

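Poly-A RNA of 7 mouse retina libraries was sequenced without a strand-marking step, per the labels' protocols. The deposited table holds whole-number read counts per gene, not normalized by the authors, and the submitters' processing notes name CASAVA, HISAT2 (2.0.5), featureCounts (1.5.0-p3) and mm10. The annotation, strand setting and rule for multimapping reads are not given in the sources used here. Gene lengths came from the deposited table. Columns were matched by the sample descriptions, with 0 left unmatched.

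Counts were filtered with filterByExpr, TMM-scaled and tested with the robust quasi-likelihood test of edgeR 4.0.16 in R 4.3.3, two-sided, with group as the sole term and Benjamini-Hochberg adjustment over all genes. SE is the log2 fold change over the root of F, and the 95% intervals use the test's degrees of freedom. Log2 CPM used a prior count of 2. DESeq2 1.42.0, limma 3.58.1, other scalings, no filter, a replicate block, a pigment epithelium covariate and left-out libraries were alternatives. The test was checked on simulated data.

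The members, 7 pathway lists and 15 marker lists were chosen with earlier results of these data known. Named pathway genes are the 2 of smallest p per direction and list with a mean of at least 1 CPM, and the 3 most alike genes per member. Other names, such as Per1, Klf9, Ddit4, Hsd11b2, Scnn1a and the genes below the filter, were chosen after their values were seen. Overlapping genes were taken from GENCODE M21. One further steroid-related result is not reported here.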

Additional observations from a re-analysis of the deposited data

Results flagged for a closer look

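In the 4 Ang II libraries, one value stood apart from the other 3 by Dixon's 95% criterion in 6 of 48 groups of values examined (33 genes and 15 marker sums). For values that spread normally the criterion gives about 1 in 20 by chance. The groups examined share the same 4 libraries and the values were not log-transformed, so an excess over chance cannot be read from this count. Tsc22d3 was low in Ang II replicate 3, at 44.2 CPM against 54.3 to 55.9 CPM in the others. Zbtb16 was high in Ang II replicate 2, at 12.8 CPM against 8.39 to 9.13 CPM. Abcb1b was low in Ang II replicate 4, at 1.21 CPM against 2.32 to 2.50 CPM.

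The other three were summed marker levels. Astrocyte markers reached 117.5 CPM in Ang II replicate 3 against 36.1 to 40.9 CPM, and skeletal muscle markers 226.2 CPM in the same library against 2.32 to 11.7 CPM. Lens markers reached 2236 CPM in Ang II replicate 2 against 1.45 to 377.3 CPM. Ang II replicate 3 is thus the library with low Tsc22d3 and high astrocyte and muscle sums, and Ang II replicate 2 the one with high Zbtb16 and a high lens sum. Whether these go together was not tested.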

How the results depend on the processing

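Over 15 alternatives, 0 of 7 members were called in each. The count over all genes was 0 in the main test and 35 with DESeq2, 114 with limma-voom, 98 without the filter, 56 with the replicate block and 0 to 117 when single libraries were left out (117 without saline replicate 3). Pathway genes called numbered 3 with limma-voom (Tspo, Mt2, Mertk), 1 without the filter and 0 to 1 with single libraries left out. Same-numbered libraries did not deviate together (r = -0.07, -0.02 and 0.05), 0 of 3 Ang II libraries were closest to their own number, and no label pairs them. The sign turned as follows, with the cause not tested. With limma-voom: Nr3c1 0.019, Hsd11b1 0.10, Fkbp5 0.24, Pgr -0.0066, Esr1 -0.24. With library size alone: Nr3c1 0.0095. With the replicate block: Nr3c1 0.00020, Fkbp5 0.072, Esr1 -0.053. With the pigment epithelium covariate: Nr3c1 0.14, Hsd11b1 0.60, Zbtb16 -0.41, Abcb1a 0.16, Srd5a1 0.11, Mertk -0.041, Icam1 -0.085, Wnk4 -0.19, Kcnj10 0.011. Without both Ang II replicate 3 and saline replicate 2: Nr3c1 0.12, Hsd11b1 0.39, Zbtb16 -0.0054, Srd5a1 0.012, Wnk4 -0.058, Esr1 -0.14. Over that run and those with single libraries left out, ranges were -0.13 to 0.12 for Nr3c1, -0.49 to 0.39 for Hsd11b1, -0.39 to 0.32 for Fkbp5, -0.26 to 0.15 for Tsc22d3, -0.056 to 0.35 for Zbtb16, -0.18 to 0.012 for Srd5a1, -0.058 to 0.34 for Wnk4 and -0.14 to 0.26 for Esr1. The log2 ratio of pigment epithelium sums was 1.26 to 2.80 with single libraries left out, with exact permutation p of 0.0667 to 0.100, the smallest those designs allow. In the alternatives chosen after seeing the data, 22 to 24 of 29 induced genes lay above their mean in saline replicate 3, and 2 to 4 in saline replicate 2. Depth limits Hsd11b1 most, at 9 to 22 counts.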
